A study of Mus musculus with 6 samples.

Results

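A cluster of small RNAs over the long 3′ untranslated region (UTR) of Ubxn7 was examined in purified mouse round spermatids with and without MIWI. The deposited piRNA table names each of its entries by chromosome, position, strand and cluster, and the members were the entries of the cluster at chr16:32386044-32394532. They numbered 3807 of the 9924085 entries in 773 clusters, and formed 2882 places once entries of the same position, strand and length were summed. A single place of 22 nt was treated apart from the other 2881 places. It was chosen by its total counts in these libraries, so its lead over the others is given as a description with no test. Of the 2882 places, 221 had at least 1 count and 2661 had none.

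The Miwi knockout (KO) group comprised 3 libraries from a global Miwi KO line, and the wild-type (WT) group comprised 3 libraries. Both groups were round spermatids from testes of C57BL/6 mice at postnatal day 21, on the C57BL/6J background per the labels' protocols. The comparison addressed whether the small RNAs of round spermatids, the haploid cells that follow meiosis, differ without MIWI. Libraries are numbered 1 to 3 within a genotype and no label ties a number to a separate animal, so p-values measure the spread between libraries, which may be technical. Fewer cells of a type and less RNA per cell cannot be told apart in such bulk samples.

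In meiotic and postmeiotic male germ cells, piRNAs are bound by 2 PIWI proteins, MIWI (PIWIL1) and MILI (PIWIL2). MIWI carries the longer piRNAs and MILI the shorter ones, and most piRNAs of both begin with uridine. Some piRNAs come from the 3′ UTRs of protein-coding mRNAs. Mature miRNAs are shorter, are loaded on Argonaute proteins, and pair with targets mainly through the seed near their 5′ end. Ubxn7 encodes a UBX domain protein that links the ATPase p97 (VCP) to cullin-RING ubiquitin ligases.

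The piRNA table held 1009902 to 1785660 counts in KO libraries and 4059156 to 6623310 in WT libraries. The small RNA table, which counts annotated miRNAs and other small RNAs, held 146487 to 243655 miRNA counts in KO libraries and 179761 to 246030 in WT libraries. Totals of the piRNA table were thus lower in each KO library while miRNA totals overlapped between the genotypes, and levels are given on both scales. Of the 3 germ cell miRNAs, miR-34b-5p made up 19.03 to 22.9 of each 100 miRNA counts in KO libraries and 18.8 to 20.01 in WT libraries, which overlapped. miR-34c-5p, at 7.81 to 8.34 in KO libraries and 6.36 to 6.90 in WT libraries, was higher in each KO library. So was miR-449a-5p, at 2.40 to 2.85 in KO libraries and 1.73 to 2.27 in WT libraries. The 7 marker miRNAs of smooth muscle, endothelium, erythroid cells and leukocytes summed to 2.31 to 2.77 per 100 in KO libraries and 2.89 to 3.84 in WT libraries. None of the 7 was at 0 in any library, 2 were lower in each KO library and 2 were higher, and their part in the results was not tested. Miwi mRNA was not analysed here, since the tables count small RNAs.

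The cluster spans 8489 bp. On the GENCODE M21 annotation of GRCm38, Ubxn7 lies on the plus strand at chr16:32332257-32393747. Its transcript Ubxn7-201 has a 3′ UTR of 8812 nt in exon 11, at chr16:32384936-32393747. The 3′ UTR of Ubxn7-203 starts at the same stop codon and ends after 2960 nt. The cluster starts 1109 nt past the stop codon and reaches 785 bp beyond the annotated end of the gene. The 22 nt site, on the plus strand, starts 5383 nt past the stop codon, so of these transcripts the long one alone contains it. The cluster's entries ran mostly with the gene, 3686 on the plus strand against 121 on the minus strand.

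The submitters' processing notes name the build mm9, and the positions were therefore checked against GRCm38. At the 1341 plus-strand positions of the cluster within the 3′ UTR, the GRCm38 base was U in 72.3%. Shifting the positions by 1 nt upstream or downstream gave 33.6% and 27.8%, and U made up 33.2% of all bases of that stretch. Among 10 mature miRNAs of the plus strand with a place of at least 100 counts, 9 had their highest place within 1 nt of the annotated GRCm38 start. Sequences below were read at the GRCm38 positions on that basis.

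The sequence of the 22 nt site is shown first within the 3′ UTR, from the GENCODE M21 transcript at chr16:32390314-32390343, with the 22 bases of the site in capitals.

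Ubxn7 3′ UTR at the site: tcagTGACTGTGTAGTTAGTTGAACAtaac

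The site is shown next beside miR-34b-5p, with the miRNA sequence from RefSeq (GRCm38.p6). Of the mature miRNAs compared, it had the most bases in common with the site when aligned from the 5′ end. The mature sequence of miR-34c-5p was not used here. Capitals mark the bases that are the same at the same position counted from the 5′ end.

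22 nt site: uGaCuGUGUAgUUAGuUGAaca
miR-34b-5p: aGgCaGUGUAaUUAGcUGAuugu

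Aligned at their 5′ ends without gaps, miR-34b-5p and the site had 14 of 22 bases in common, the most of the 1679 mature miRNAs compared, which did not include miR-34c-5p. The next 9 mature miRNAs had 12 in common. By the longest unbroken run shared with the site, miR-34b-5p had 5 bases and ranked 123, while miR-7225-5p ranked 1 with 10. miR-34b-5p belongs to the miR-34 family, which is abundant in meiotic and postmeiotic male germ cells. Its mature sequence lies at chr9:51103610-51103632 on the minus strand, and its gene lies beside that of miR-34c. When the site was slid along the 1005 hairpins of the table, the Mir34c hairpin shared 15 of 22 bases, as did Mir106b, Mir466k and Mir6905. The Mir34c hairpin also contained 10 bases of the site in an unbroken run, the longest such run, which the Mir7225 hairpin equalled. By comparison, the same alignment of other mature miRNAs gave 10 bases in common for miR-34a-5p, 9 for miR-449a-5p, 6 for miR-16-5p and 5 for miR-19b-3p.

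The seed of the site, bases 2 to 8, is not that of the miR-34 family. It was shared by 2 mature miRNAs, shown here with the seed in capitals.

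22 nt site, seed: uGACUGUGuaguuaguugaaca
miR-679-5p, seed: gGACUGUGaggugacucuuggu
miR-7221-3p, seed: uGACUGUGggcuggggacugg

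Neither was abundant in these cells. miR-679-5p, from chr12:109715587-109715608, had 0 counts over the 6 libraries of the small RNA table, and miR-7221-3p, from chr2:92592257-92592277, had 7.

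Almost all counts of the cluster fell on the 22 nt site. It had 13703, 9017 and 14661 counts in KO replicates 1 to 3, against 8117, 10142 and 12334 counts in WT replicates 1 to 3. These were 99.7% to 99.8% of the cluster's counts in KO libraries and 99.1% to 99.2% in WT libraries. The site was a single deposited entry, and the 3 other entries within 2 nt of it on the same strand held 1 count in all.

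The site was the highest of all places of the table in each KO library, where the next place, of 24 nt, had 4072, 2682 and 3756 counts. In WT replicates 1 to 3 it ranked 2, 1 and 2, and the highest other place, of 30 nt, had 9892, 7864 and 13706 counts. With the site included, the cluster ranked 44 of 773 by counts and 1 of 773 by the share of its counts in 22 nt. Without it, the cluster ranked 488 of 765 tested clusters by mean CPM (counts scaled to a library size of 1000000).

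RNAs of 22 nt took a larger part of the table in KO. The site alone was 0.773%, 0.893% and 0.821% of the table in KO libraries, against 0.200%, 0.233% and 0.186% in WT libraries. The other 22 nt places together were 2.08% ± 0.167 of the table in KO and 0.610% ± 0.0480 in WT (SD, n = 3). As a share of all 22 nt counts the site had 26.6%, 28.7% and 30.2% in KO libraries and 24.7%, 26.1% and 24.9% in WT libraries. All 3 KO shares lay above the highest WT share, and this difference was not tested.

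The size of the difference at the site depended on what it was set against. Per 1000000 counts of the piRNA table, it averaged 8290 ± 602 in KO libraries and 2063 ± 238 in WT libraries (SD, n = 3), 4.02-fold higher in KO. With library sizes scaled by TMM factors it averaged 5078 ± 286 CPM in KO libraries and 3356 ± 236 CPM in WT libraries, 1.51-fold higher in KO. Per 100 miRNA counts it was at 5.84, 6.16 and 6.02 in KO libraries and 4.52, 5.17 and 5.01 in WT libraries, 1.22-fold higher in KO. The means were 6.00 ± 0.159 in KO libraries and 4.90 ± 0.343 in WT libraries (SD, n = 3). No KO library overlapped a WT library on any of these scales, and among the places tested 87.3% showed such a separation in CPM. Each exact permutation p was 0.1, which is the lower limit for 3 against 3 libraries.

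**Figure D1:**
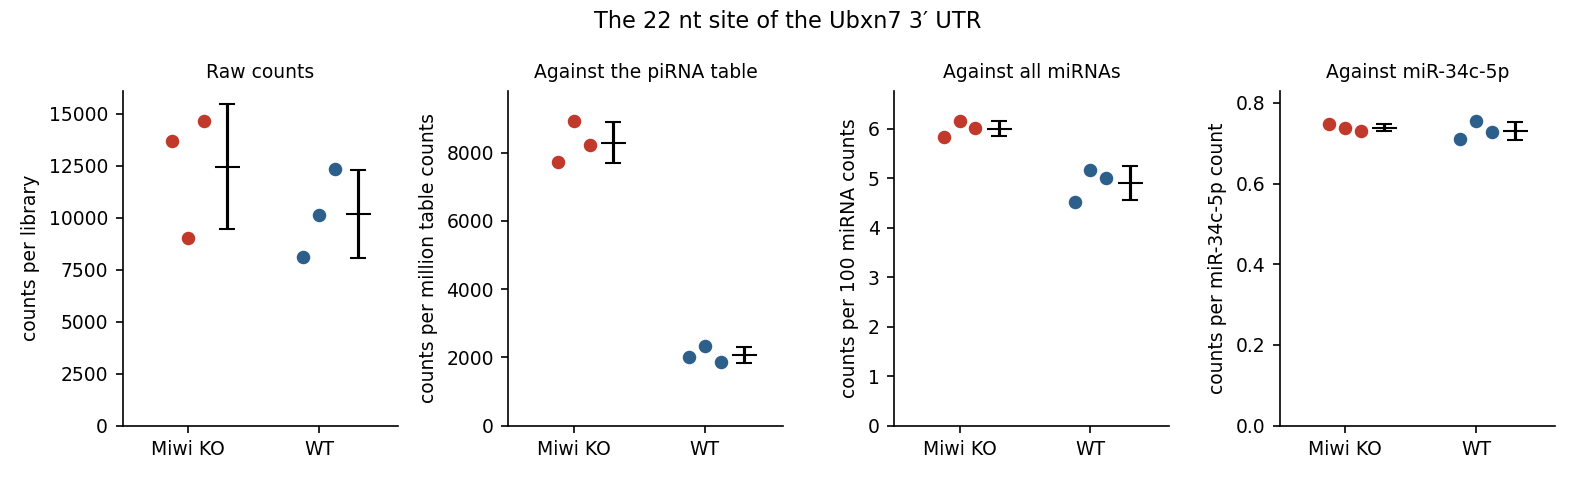
Counts at the 22 nt site by library, from left to right as raw counts, per 1000000 piRNA table counts, per 100 miRNA counts and per miR-34c-5p count. Points are libraries, and bars give the mean and SD of 3 libraries. The KO libraries sit apart from WT against the table total (means 8290 in KO and 2063 in WT) and lie close to WT per miR-34c-5p count (means 0.738 in KO and 0.731 in WT).

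Among places, the edgeR quasi-likelihood test covered 60631 places with enough counts. The site was the only one of the 2882 member places that passed this filter, so 2881 member places were not tested singly. It rose by 0.60 ± 0.19 (SE) on the log2 scale with a Benjamini-Hochberg adjusted p of 0.00238. Of all places tested, 87.7% were called in either direction with 33.1% called higher and 54.6% lower in KO, so a call by itself sets the site little apart. The split was 20049 higher and 33126 lower, against 27521 higher and 29599 lower with library size and 8819 higher and 34196 lower with DESeq2. The median place had a log2 change of -1.86, and relative to it the site was higher by 2.45 under TMM factors, library size and miRNA scaling. A change of scaling shifts all places about alike, so the agreement of these 3 values is fixed by arithmetic. With miRNA scaling, in which library sizes come from the miRNAs of the small RNA table, the log2 change was 0.41 and the call was lost (edgeR adjusted p = 0.0888). DESeq2 gave a log2 change of 0.010 (adjusted p = 0.961), and leaving out any one of the 6 libraries also ended the call, with log2 changes of 0.15 to 0.52.

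The site was also tested, with the same counts, as a unit beside sums of whole clusters, and was called there under each of the 11 alternatives. It rose there by 0.96 ± 0.06 (SE) in log2 (edgeR adjusted p = 4.64e-15), when 54.7% of 766 units were called and 23.6% were called higher. Under miRNA scaling the log2 change was 0.41 with an SE of 0.11 (edgeR adjusted p = 0.000574), and 3.52% of units were called higher. Among places the change on that scale was also 0.41, with an SE of 0.23. The counts of the site are the same in both tests, so the calls among clusters add no separate evidence to those among places.

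The counts of the site ran in step with those of miR-34c-5p. In the small RNA table miR-34c-5p had 18323, 12211 and 20115 counts in KO libraries and 11426, 13434 and 16968 counts in WT libraries. The site had 0.748, 0.738 and 0.729 counts per miR-34c-5p count in KO libraries, against 0.710, 0.755 and 0.727 in WT libraries. The genotypes overlapped, with means of 0.738 ± 0.00950 in KO libraries and 0.731 ± 0.0225 in WT libraries (SD, n = 3). miR-34c-5p was chosen after the counts were seen and for how closely it tracks the site, so this ratio is a description with no test. Other denominators gave larger differences: the site was 1.196-fold higher in KO per miR-19b-3p count and 1.15-fold higher per miR-34b-5p count, both with overlap, and 1.29-fold higher per miR-16-5p count without overlap.

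How closely other small RNAs tracked the site was measured by the SD, over the 6 libraries, of the log2 ratio of the site to each RNA. For miR-34c-5p it was 0.0315, the lowest of 2972 RNAs with at least 1000 counts, where counting error alone would give 0.0183. A piRNA entry of 29 nt followed with 0.0600, and miR-19a-3p with 0.0646. That piRNA entry had 2241 counts in all, against 92477 for miR-34c-5p. Counting error is larger for RNAs with fewer counts, and the ranking makes no allowance for it. The rank of an RNA thus depends in part on its abundance, and the lowest SD does not single out miR-34c-5p. miR-34b-5p ranked 47 with 0.155. miR-449a-5p ranked 51 with 0.164, miR-19b-3p ranked 79 with 0.189 and miR-16-5p ranked 194 with 0.265. All of these ratios share the counts of the site and the libraries, and are a description over 6 libraries.

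**Figure D2:**
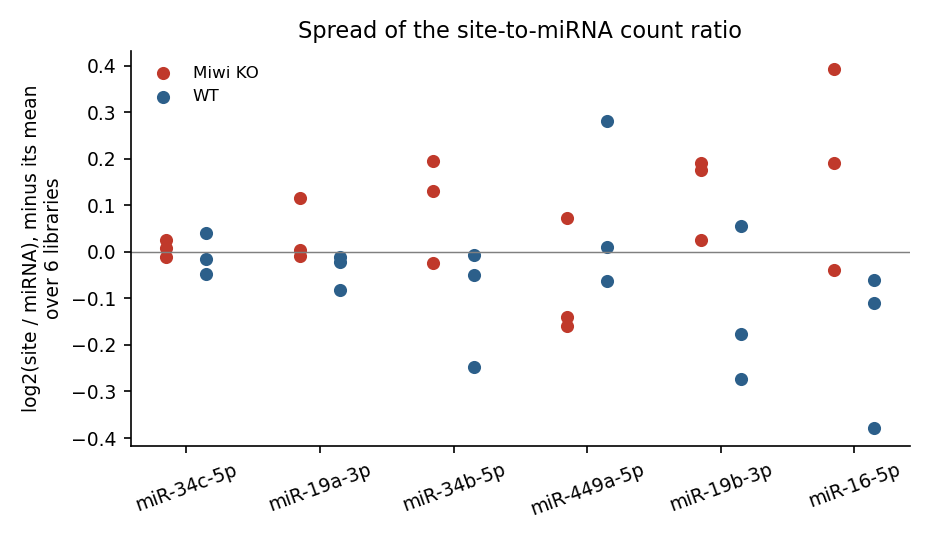
Log2 ratio of the counts at the 22 nt site to those of each miRNA, minus its mean over the 6 libraries (vertical axis), for 6 miRNAs, with 1 point per library. The points of miR-34c-5p lie closest to 0 (SD 0.0315), and those of miR-16-5p are the most spread of the 6 (SD 0.265).

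None of the 22 nt RNAs of the small RNA table had counts within 1.5-fold of the site in each library. Of any length, 2 RNAs did. miR-19b-3p was within 1.19-fold of the site and miR-34c-5p within 1.41-fold in each library. Both are indexed at 23 nt, 1 nt longer than the site. The tables hold no read sequences, so whether reads of a miR-34 family miRNA were counted at the site was not tested.

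The rest of the cluster was sparse. The other places had 37, 21 and 44 counts in KO libraries, against 68, 79 and 111 counts in WT libraries. The 360 counts were spread over 220 places, 175 of which had a single count and 8 of which had at least 5. The totals were 102 KO counts and 258 WT counts. Of these, 70 KO counts and 210 WT counts lay on the stretch of the 3′ UTR found in Ubxn7-201 alone, and 8 KO counts and 19 WT counts on the stretch shared with Ubxn7-203. Beyond the gene's end, 0 KO counts and 3 WT counts lay on the plus strand, and 24 KO counts and 26 WT counts lay on the minus strand. No minus-strand count lay within the gene.

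The sparse counts in the 3′ UTR began mostly with uridine, the usual first base of piRNAs. Reads could be counted only at indexed positions, of which 72.3% have U there. A majority with U was therefore largely set by the index. U was the first base for 79.3%, 88.2% and 87.5% of these counts in KO libraries and for 85.1%, 84.7% and 85.6% in WT libraries. The genotypes overlapped in this measure.

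The rest of the cluster fell in KO with TMM factors. edgeR's test on sums per cluster gave a log2 change of -0.67 ± 0.17 (SE) with a Benjamini-Hochberg adjusted p of 0.00106, where 31.1% of the units were called lower. The direction depended on scaling. Per 1000000 table counts the rest averaged 22.1 ± 2.20 in KO libraries and 17.2 ± 0.788 in WT libraries, and with library size alone the log2 change was 0.38 (edgeR adjusted p = 0.0375). Per 100000 miRNA counts the means were 16.1 ± 1.88 in KO libraries and 41.1 ± 3.71 in WT libraries (SD, n = 3), and with miRNA scaling the log2 change was -1.22 (edgeR adjusted p = 5.62e-09). The median of all units moved with the scaling in the same way, at 0.01 with TMM factors, 1.05 with library size and -0.55 with miRNA scaling. Relative to that median the rest of the cluster was lower by a log2 difference of -0.68 each time. Scaling shifts all units about alike, so this agreement could not have come out otherwise.

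A single place of 31 nt carried much of this difference. It lies at chr16:32390020-32390050 on the plus strand, 298 nt before the 22 nt site, in the part of the 3′ UTR that only Ubxn7-201 holds. Its first 20 bases are shown because it was the highest of the sparse places, with the first base, U in the RNA, in capitals.

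31 nt place, first 20 bases: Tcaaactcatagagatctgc

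It had 0, 0 and 0 counts in KO libraries, against 13, 14 and 21 counts in WT libraries. Every WT library had more counts there than at any other of the sparse places, and no KO library had one. A count of 0 was given a limit of 3 counts over the KO group. The WT level was 13.1-fold above that limit with TMM factors, 14.8-fold with miRNA scaling and 4.86-fold on table totals. These ratios leave out the error of the WT counts. It did not pass the filter on low counts, and in the edgeR test without a filter its adjusted p was 8.39e-11, where 10.3% of 1552853 places were called lower. The place was named for its total counts, all of them from WT libraries, so that call rests on the values that named it and supports nothing. Without this place, an alternative chosen after its values were seen, the log2 change of the rest was -0.37 and was no longer called (edgeR adjusted p = 0.0723).

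Other named places had few counts, and their values show no more than where counts lay. On the minus strand beyond the gene's end, a 27 nt place at position 32393987 had 4, 0 and 3 counts in KO libraries and 1, 1 and 4 in WT libraries. A 30 nt place of the same position had 0, 0 and 3 counts in KO libraries and 0, 0 and 2 in WT libraries. Nearby, a 28 nt place at 32393943 had 4 KO counts and 3 WT counts, and a 27 nt place at 32393944 had 2 KO counts and 5 WT counts. None of these separated the genotypes.

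On the plus strand, a 32 nt place at 32391481 had 2, 1 and 0 counts in KO libraries and 3, 1 and 2 in WT libraries. A 33 nt place at 32391430 had 0 KO counts and 5 WT counts. Its neighbour of 29 nt at 32391431 had 0 KO counts and 4 WT counts, as did a 28 nt place at 32391780. An 18 nt place at 32392456, which ties with the places at 32391431 and 32391780 at 4 counts in all, had 2 KO counts and 2 WT counts. A 20 nt place at 32393562 had 4 KO counts and 2 WT counts. These counts were too few to test.

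**Figure D3:**
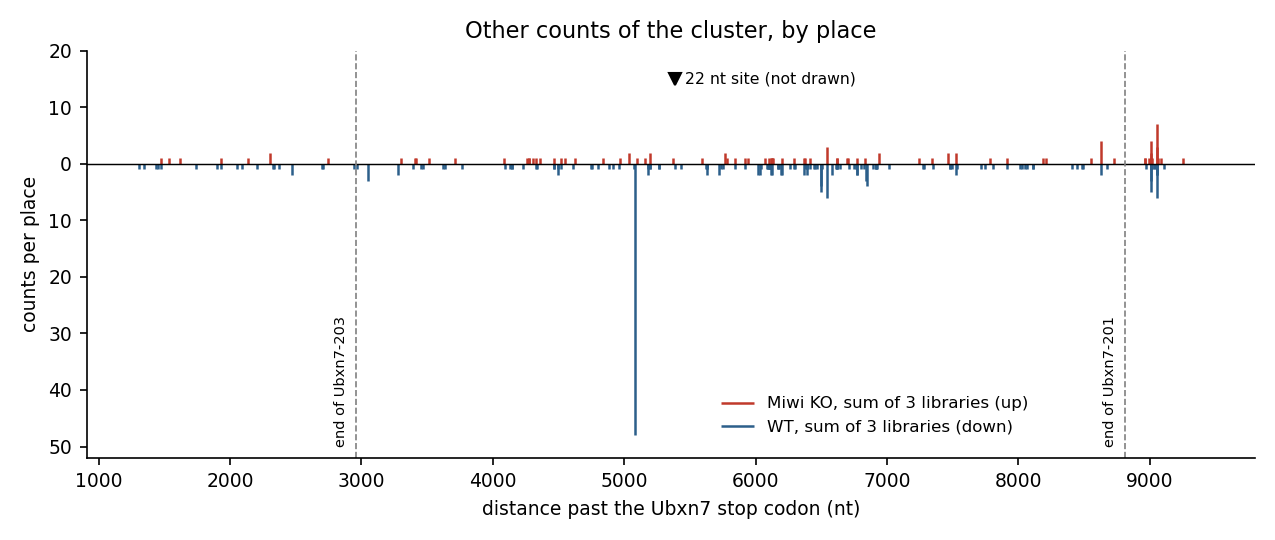
Counts per place in the cluster without the 22 nt site, against the distance past the Ubxn7 stop codon in nt, with KO counts drawn up and WT counts drawn down (sums of 3 libraries). Dashed lines mark the ends of the 3′ UTRs of Ubxn7-203 and Ubxn7-201, and a triangle marks the site. The 31 nt place stands out with 48 WT counts and 0 KO counts, and the group past the gene's end is on the minus strand.

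The minus-strand places had 8, 4 and 12 counts in KO libraries and 1, 5 and 20 in WT libraries. Per 1000000 table counts they averaged 5.07 ± 1.46 in KO libraries and 1.47 ± 1.41 in WT libraries without overlap (exact permutation p = 0.1, the smallest possible, n = 3). On the scale of library size, 594 of the 766 cluster units were called higher in KO, so a rise there sets these places little apart. Per 100000 miRNA counts the genotypes overlapped, with means of 3.69 ± 1.124 in KO libraries and 3.75 ± 3.93 in WT libraries (exact permutation p = 1, n = 3).

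By length, the fall passed the test at 29-32 nt. Places of 29-32 nt, the lengths usual for MIWI, had 7, 4 and 20 counts in KO libraries and 35, 39 and 62 in WT libraries. Places of 25-28 nt, the lengths usual for MILI, had 27, 14 and 18 counts in KO libraries and 29, 30 and 40 in WT libraries. The 18-24 nt places other than the site had 2, 3 and 6 counts in KO libraries and 3, 6 and 5 in WT libraries, too few to pass the filter. Those of 33-34 nt had 1 KO count and 9 WT counts.

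edgeR's test on sums per cluster and length class gave a log2 change of -1.49 ± 0.31 (SE) for 29-32 nt, with a Benjamini-Hochberg adjusted p of 0.000503. For 25-28 nt the log2 change was -0.12 ± 0.23 (edgeR adjusted p = 0.693). Of 1683 such units over all clusters, 56.4% were called, with 30.5% lower and 25.9% higher in KO. That split of 436 higher and 514 lower became 1165 higher and 270 lower with library size, and 116 higher and 755 lower with miRNA scaling. With library size alone the 29-32 nt change was -0.45 and not called (edgeR adjusted p = 0.189), while the 25-28 nt places rose by 0.93 (edgeR adjusted p = 0.0015). Under miRNA scaling the 25-28 nt log2 change was -0.63 and was called (edgeR adjusted p = 0.0372), as 44.9% of units were called lower there. Relative to the median unit, the 29-32 nt class stood at -1.58 on each of these scales, and the 25-28 nt class at -0.20, -0.20 and -0.21 with TMM factors, library size and miRNA scaling. Here too the agreement between scales is fixed by arithmetic.

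The share of 29-32 nt among 25-32 nt counts does not depend on scaling. It was 20.6%, 22.2% and 52.6% in KO libraries and 54.7%, 56.5% and 60.8% in WT libraries. The exact 95% binomial intervals were 8.70% to 37.9%, 6.41% to 47.6% and 35.8% to 69.0% in KO replicates 1 to 3. In WT replicates 1 to 3 they were 41.7% to 67.2%, 44.0% to 68.4% and 50.6% to 70.3%. KO replicate 3 stood apart from the other KO libraries and close to WT. The means were 31.8% ± 18.05 in KO libraries and 57.3% ± 3.13 in WT libraries (SD, n = 3), a difference of -25.5 percentage points without overlap (exact permutation p = 0.1, the smallest possible). Without KO replicate 3 the difference was -35.9 points and the 29-32 nt log2 change was -2.28. The 25-28 nt log2 change was then 0.05. The 31 nt place gave 48 of the 136 WT counts of 29-32 nt. Without it, an alternative chosen after its values were seen, the WT shares were 43.1%, 45.5% and 50.6%, KO replicate 3 lay above them, and the difference was -14.6 points (exact permutation p = 0.4, n = 3). The 29-32 nt log2 change was then -0.87 (edgeR adjusted p = 0.0354). Taking 28-32 nt of 24-32 nt instead, the libraries also overlapped, at 50%, 36.8% and 73.7% in KO and 75%, 69.01% and 75.5% in WT (exact permutation p = 0.2, n = 3).

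Counts pooled over the rest of the table shifted further. There the KO libraries averaged 22.1% ± 1.11 and the WT libraries 80.7% ± 0.581 (SD, n = 3). The share in the Ubxn7 cluster minus that in the rest of the table was 9.69 ± 16.9 points in KO and -23.4 ± 2.81 points in WT. These differed by 33.1 points, or 44.0 points without the 31 nt place (exact permutation p = 0.1 for each, the smallest possible, n = 3). Counts summed over the table weight clusters by their size, and the median cluster had a share of 19.97% in KO and 38.0% in WT (pooled libraries). The Ubxn7 cluster, at 34.4% in KO and 57.9% in WT, ranked 52 in KO and 190 in WT of 764 clusters. Its difference between genotypes was thus larger than that between the medians, so the comparison turns on how clusters are weighted. The difference from the medians was not tested.

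**Figure D4:**
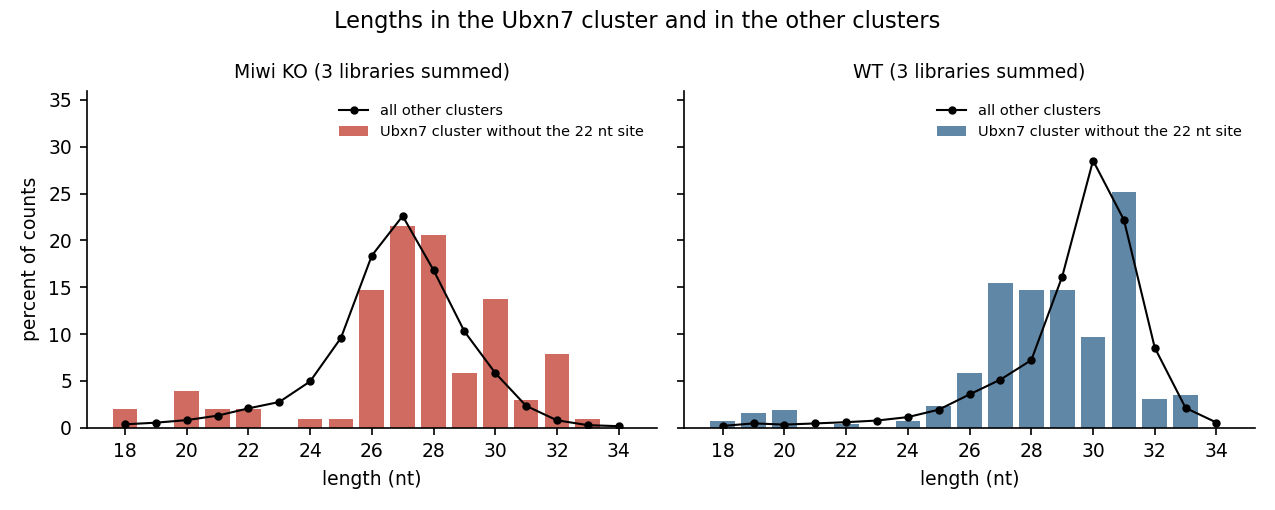
Percent of counts at each length in nt (bars, Ubxn7 cluster without the 22 nt site; line, all other clusters) in KO on the left and WT on the right, each with 3 libraries summed. The cluster's bars peak at 27 nt in KO and at 31 nt in WT, where the 31 nt place lies, and the bars rest on 102 KO and 258 WT counts.

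The 3 clusters with the mean CPM nearest to that of the sparse places overlap other genes. The cluster at chr15:79130357-79139927, over 1700088E04Rik, rose by 0.59 in log2 (edgeR adjusted p = 0.00345). That at chr5:34170002-34180940, over Mxd4, a MAX-binding repressor of transcription, rose by 0.81 (edgeR adjusted p = 0.000134). That at chr7:80237326-80245018, over Gdpgp1, a GDP-glucose phosphorylase, had a log2 change of -0.22 (edgeR adjusted p = 0.337). These values are with TMM factors, and each call changed under miRNA scaling. There the log2 change was 0.04 for 1700088E04Rik (edgeR adjusted p = 0.862) and 0.25 for Mxd4 (edgeR adjusted p = 0.280). For Gdpgp1 it was -0.77 and was called (edgeR adjusted p = 0.000279).

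Their 29-32 nt shares were lower in both genotypes. The 1700088E04Rik cluster had 15.9% in KO and 19.1% in WT, the Mxd4 cluster 12.3% in KO and 14.1% in WT, and the Gdpgp1 cluster 9.80% in KO and 17.7% in WT. The differences between these clusters and that of Ubxn7 were not tested. By log2 change the Ubxn7 cluster without the site ranked 590 of 765 clusters from the highest.

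The split of all clusters into rises and falls depended on scaling. Of 765 clusters tested, 180 rose, 238 fell and the median log2 change was 0.00 with TMM factors, while 26 rose and 439 fell with miRNA scaling. With library size, 594 of the 766 units, which include the site, rose and 104 fell. Of the 131 clusters that lie wholly within the span of 1 protein-coding gene, 35 rose, 32 fell and the median was 0.09. Under miRNA scaling 7 of them rose, 65 fell and the median was -0.47. The Ubxn7 cluster, with 90.8% of its length in the gene, is outside that list and inside the wider one of clusters at least 50% within a gene. Of those 549 clusters, 146 rose, 134 fell and the median was 0.09, against 17 that rose and 277 that fell under miRNA scaling.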

How the data were processed

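Small RNA from purified round spermatids was isolated with the mirVana kit and made into libraries with the Ion Total RNA-Seq Kit v2, per the labels' protocols. The authors deposited 2 tables of raw counts per reference sequence, made with featureCounts v1.5.0-p2 per the file headers. The submitters' processing notes also name cutadapt, DESeq2 and mm9. The sources used here give neither the aligner nor how reads with several matches were treated, so the split of counts among like sequences is uncertain. Column totals were 1009902 to 6623310 for the piRNA table. Entry lengths, less 20 nt of padding, stand for read lengths.

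Groups came from sample titles. Counts were summed by place, by cluster (the 22 nt site apart) and by cluster and length class, and each whole table was tested with edgeR 4.0.16 under R 4.3.3, by its quasi-likelihood test (TMM factors, minimum count 10, minimum total 15, Benjamini-Hochberg threshold 0.05). Shares and ratios were compared with exact two-sided permutation tests in Python 3.11.15 and scipy 1.17.1. The labels name no molecular identifiers, so intervals (exact Clopper-Pearson, 95%) and floors (3 counts) cover counting error only. The test was tried on simulated data, where changed places with few counts were recovered less often than others. At most 200 places were changed there, as many up as down. The simulation therefore does not cover a table in which most places are called, as here. Alternatives were DESeq2 1.42.0, library size, miRNA scaling, other filters, single entries, other length classes, a replicate block, and leaving out each library.

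The members, lists and tests were chosen with earlier results of these data known. Named places were the 22 nt site and the 10 other places with the most counts, with ties. Comparison clusters were the 3 nearest in mean CPM, and like RNAs were those of 22 nt within 1.5-fold of the site in each library. The RNAs of other lengths, the SD of the log2 ratio, the miR-34c-5p ratio and the tests without the 31 nt place were added after values were seen.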

Additional observations from a re-analysis of the deposited data

How the results depend on the processing

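The site's log2 change among places was the least stable value. It was 0.010 with DESeq2 (adjusted p = 0.961), 0.41 with miRNA scaling, 0.39 without a filter and 0.024 for single entries. Without 1 library each it was 0.15 to 0.52, and none of these values was called. It was called at 2.01 with library size and at 0.82 with a minimum count of 30 (edgeR adjusted p = 6.26e-06). A replicate block, given below, also kept the call. Member places called numbered 1, and 0 with DESeq2, miRNA scaling and single entries. Without 1 library each the number was 0 to 1. The 1, there and without a filter, was the 31 nt place, which was tested only through its WT counts, so it supports nothing. The cause was not tested. Among clusters the same counts of the site were higher and called under all 11 alternatives, with log2 changes of 0.41 to 2.01. These calls add no separate evidence to the test among places.

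The rest of the cluster was reversed by library size (0.38) and lost its call without the 31 nt place (-0.37). Without 1 library each it stayed called, at -0.73 to -0.53. For 29-32 nt the call was lost with library size (-0.45) and held without each library (-2.28 to -1.15) and without the 31 nt place (-0.87). For 25-28 nt the sign turned with library size (0.93) and without KO replicate 3 (0.053), the change was called with miRNA scaling (-0.63), and the range without 1 library each was -0.27 to 0.053. The site's difference per miR-34c-5p count ranged from -0.00254 to 0.0197 without 1 library each. The length difference between the cluster and the rest of the table was 23.3 to 38.5 points without 1 library each.

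Same-numbered KO and WT libraries had correlated deviations of 0.00362, 0.0522 and 0.0764 across places. Libraries of different numbers had -0.0747 to 0.0209. All of these correlations were weak, and whether the numbers mark a pairing was not tested. A replicate block gave log2 changes of 0.60 (site), -0.67 (rest), -0.14 (25-28 nt) and -1.49 (29-32 nt) and changed no call. For the site among places it lowered the SE from 0.19 to 0.089 (edgeR adjusted p = 3.83e-11).

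Low counts left the sparse places untested singly: 2881 of 2882 member places did not pass the filter, and 2661 had no count. Whether depth or low levels of these RNAs lie behind this was not tested.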
